A study of Homo sapiens with 8 samples.

Results

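The oxidative phosphorylation subunit genes are the nuclear genes for the proteins of respiratory complexes I to V. The rule works on names and uses no measured value, though the gene class was picked with earlier results of these data known: a probe set with a single platform symbol had to begin with NDUFA, NDUFB, NDUFC, NDUFS or NDUFV, with UQCR, with COX4 to COX8, or with ATP5, or to be one of CYC1 and the SDH genes A to D. Assembly factors named NDUFAF and pseudogenes were left out. Of 18244 genes with such a probe set, 84 met the rule, namely 36 of complex I, 3 of complex II, 9 of complex III, 17 of complex IV and 19 of complex V. COX7A2L, a factor for respiratory supercomplexes, and ATP5IF1, the inhibitor of the ATP synthase, met the rule without being subunits. UQCRHL is a near-identical copy of UQCRH, and its probe set may detect both. NDUFA4, NDUFA4L2, SDHB, UQCRFS1 and the mitochondrially encoded subunits were not analysed here.

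Complex I takes electrons from NADH and complex II takes them from succinate, and both hand them to ubiquinone. Complex III passes them to cytochrome c and complex IV to oxygen, while complexes I, III and IV pump protons across the inner mitochondrial membrane. Complex V, the ATP synthase, uses that gradient to make ATP. Complex II is also an enzyme of the tricarboxylic acid (TCA) cycle, and is the one complex whose subunits are all encoded in the nucleus. The coactivator PPARGC1A and the factors NRF1, GABP, ERR and YY1 are known regulators of these genes, and MITF is known to drive PPARGC1A in melanoma cells.

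The cells were SK-MEL-5, an established human melanoma line, measured on 8 Affymetrix expression arrays in 4 groups of 2, each array from 100 ng of total RNA. In one experiment, THZ1, a covalent inhibitor of the kinase CDK7, was given at 250 nM in 25 uM DMSO for 6 h and compared with 25 uM DMSO alone. In the other, cells transfected with an siRNA against MITF (siMITF) were compared with cells given a non-targeting siRNA (siCtrl). All groups are thus 1 cell line, and the labels give no time for DMSO or for harvest after transfection. Nor do they tell replicate cultures from repeat measurements, so the p-values cover array-to-array spread that may be technical.

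Signals are reported on 2 scales. The deposited scale is the array signal normalized to cell number by the authors, and the relative scale sets each array's median gene to 0, so that a change is a change against other mRNAs. All changes are in log2(signal + 16), and 11946 genes above a signal of 39.2 were tested with limma at a Benjamini-Hochberg adjusted p under 0.05. On the deposited scale the median gene changed by -0.16 with THZ1 and by -0.63 with siMITF. In bulk RNA, fewer cells of a type and less RNA per cell cannot be told apart.

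The median signal of an array lay between 32.5 and 76.1, and arrays of a group correlated at r = 0.996 in each group. ERCC spike-in medians were 48.0 to 53.9 on the THZ1 and DMSO arrays and 27.6 to 30.7 on the siMITF and siCtrl arrays, so levels were not compared across the experiments. The targeted MITF mRNA gave signals of 1747 and 1168 in siMITF cells, against 3436 and 3936 in siCtrl cells, and its relative change was -0.72 (limma adjusted p = 0.000325). With THZ1 it gave 3311 and 4178, against 4670 and 5669 with DMSO, and its relative change there was -0.27 (limma adjusted p = 0.0498). The mRNA of CDK7 gave 251 and 323 with THZ1, against 395 and 493 with DMSO, a relative change of -0.41 (limma adjusted p = 0.00148). With siMITF CDK7 changed by 0.03 (limma adjusted p = 0.784). Melanocyte markers summed over 9 measured genes to 41546 to 51520 with THZ1 and 46161 to 50946 with DMSO, and to 18176 to 22580 with siMITF and 29768 to 34379 with siCtrl. These markers did not move together. Their relative changes ran from -1.16 (SOX10) to 0.33 (GPR143) with THZ1, and from -1.08 (SLC45A2) to 0.90 (S100B) with siMITF. Among markers for other cell types, 1 of 5 for keratinocytes, 3 of 6 for fibroblasts, 0 of 5 for leukocytes and 2 of 4 for endothelium passed the filter on dim probe sets. Summed fibroblast markers were 2660 and 3447 with THZ1 and 2370 and 2863 with DMSO, and 976 and 734 with siMITF and 1544 and 1866 with siCtrl, most of it from LUM. LUM changed by 0.42 with THZ1 and -0.43 with siMITF relative to the median gene, and DCN by 0.51 and 0.20, all past the limma test, while the collagen genes COL1A1, COL1A2 and COL3A1 did not reach the filter. Of the endothelial markers, KDR changed by -0.40 and 0.67. The part of other cell types in the results was not tested.

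Of the 84 genes, 79 passed that filter. The other 5 were COX4I2, COX7A1, COX7B2, COX8C and ATP5MGL, tissue-restricted isoforms and an ATP5MG-like gene, with no signal above 49.9 on any array. Among the tested genes, the mean signal ran from 40.9 for COX6B2 to 8701 for COX6A1, and 59 of the 79 had a mean of at least 1000. Probe sets differ in their response, so these signals rank arrays within a gene and not genes.

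To show the sequences in front of these genes, the 250 bases upstream of the transcription start are given for 5 members on which the siMITF comparison turns, the 3 with a promoter on record that fell most relative to the median gene and both that rose. They are from RefSeq on GRCh38.p14, read 5′ to 3′ on the gene's own strand. Capitals mark matches, on either strand, to the motifs GCGCA and GCGC with 1 base between (NRF1), CCGGAAG (ETS/GABP), AAGGTCA (ERR), AAGATGGCG (YY1) and CACGTG (E-box, the core that MITF can bind). SDHC, which also fell strongly, is named only.
SDHD, chr11:112086623-112086872, plus strand: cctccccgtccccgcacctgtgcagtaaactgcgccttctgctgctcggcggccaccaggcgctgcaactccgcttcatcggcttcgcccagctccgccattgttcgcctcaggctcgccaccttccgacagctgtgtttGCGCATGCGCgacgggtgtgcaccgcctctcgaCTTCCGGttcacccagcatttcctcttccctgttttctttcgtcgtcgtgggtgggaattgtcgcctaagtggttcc
NDUFAB1, chr16:23596317-23596566, minus strand: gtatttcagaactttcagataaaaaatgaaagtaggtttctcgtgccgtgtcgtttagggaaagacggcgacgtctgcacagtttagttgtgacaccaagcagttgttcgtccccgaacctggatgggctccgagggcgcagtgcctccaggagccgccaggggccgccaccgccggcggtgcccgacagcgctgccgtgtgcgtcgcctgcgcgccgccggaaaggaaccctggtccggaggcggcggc
ATP5F1C, chr10:7787927-7788176, plus strand: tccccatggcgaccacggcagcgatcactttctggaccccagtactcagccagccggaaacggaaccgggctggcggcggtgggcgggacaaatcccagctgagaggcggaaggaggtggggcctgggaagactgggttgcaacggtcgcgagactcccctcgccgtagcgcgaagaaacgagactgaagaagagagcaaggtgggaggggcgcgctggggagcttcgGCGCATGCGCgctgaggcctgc
UQCR11, chr19:1605463-1605712, minus strand: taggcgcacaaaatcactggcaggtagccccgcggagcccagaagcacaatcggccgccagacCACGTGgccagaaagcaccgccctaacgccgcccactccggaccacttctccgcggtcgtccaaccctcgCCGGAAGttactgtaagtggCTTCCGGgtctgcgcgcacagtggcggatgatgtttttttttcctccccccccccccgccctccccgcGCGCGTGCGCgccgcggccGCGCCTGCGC
ATP5MC2, chr12:53676084-53676333, minus strand: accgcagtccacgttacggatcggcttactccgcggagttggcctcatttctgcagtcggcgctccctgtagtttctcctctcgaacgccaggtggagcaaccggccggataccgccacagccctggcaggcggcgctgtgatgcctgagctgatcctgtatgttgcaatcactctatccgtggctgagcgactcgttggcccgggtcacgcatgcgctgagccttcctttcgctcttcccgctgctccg
The SDHD window held an NRF1 and an ETS/GABP match, and the ATP5F1C window an NRF1 match. The UQCR11 window held 5 matches, with 1 E-box, 2 ETS/GABP and 2 NRF1, none of them overlapping. The NDUFAB1 and ATP5MC2 windows held none of these letter strings, which says nothing about binding.

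After 6 h of THZ1, most subunit mRNAs of complexes I, III, IV and V rose relative to the median gene by the limma test. In complex II 1 of the 3 measured passed, with values above 0 for SDHC (0.29), SDHA (0.16) and SDHD (0.04). On the relative scale 72 of 79 rose and 0 fell by the limma test, against 17.7% of all tested genes that rose and 21.1% that fell. The median change was 0.37 (1.29-fold), and 78 of 79 values were above 0. On the deposited scale, where 10.0% of all tested genes fell and 0.0753% rose, 0 of the 79 passed in either direction with limma, and 0 had an unadjusted p under 0.05. Their median there was 0.17, against -0.16 for the median gene.

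The relative rise was seen array by array: for 76 of 79 genes both centred THZ1 values lay above both centred DMSO values, which held for 38.0% of all tested genes. As deposited, both THZ1 signals lay above both DMSO signals for 2 of 79, against 0.871% of all tested genes. Bright genes as a whole also stood higher. At a mean signal of at least 1000, 94.9% of the 59 subunit genes rose on the relative scale, against 53.9% of all 1148 tested genes in that range. Below it, 80% of the 20 subunit genes rose, against 13.8% of 10798. Most of the 20 had a mean signal above 515.5, which most of the 10798 did not reach, so these shares are not of like signal. Set against the median of tested genes of like signal, in 20 bins of equal size, 72 of 79 subunit genes were above it with THZ1, by a median of 0.16. In complex II it was 1 of 3, with a median of -0.02. The count of genes that rose was 32 after quantile normalization and 39 after cyclic loess, which both force arrays to like distributions, and 29 with no filter on dim genes.

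**Figure D1:**
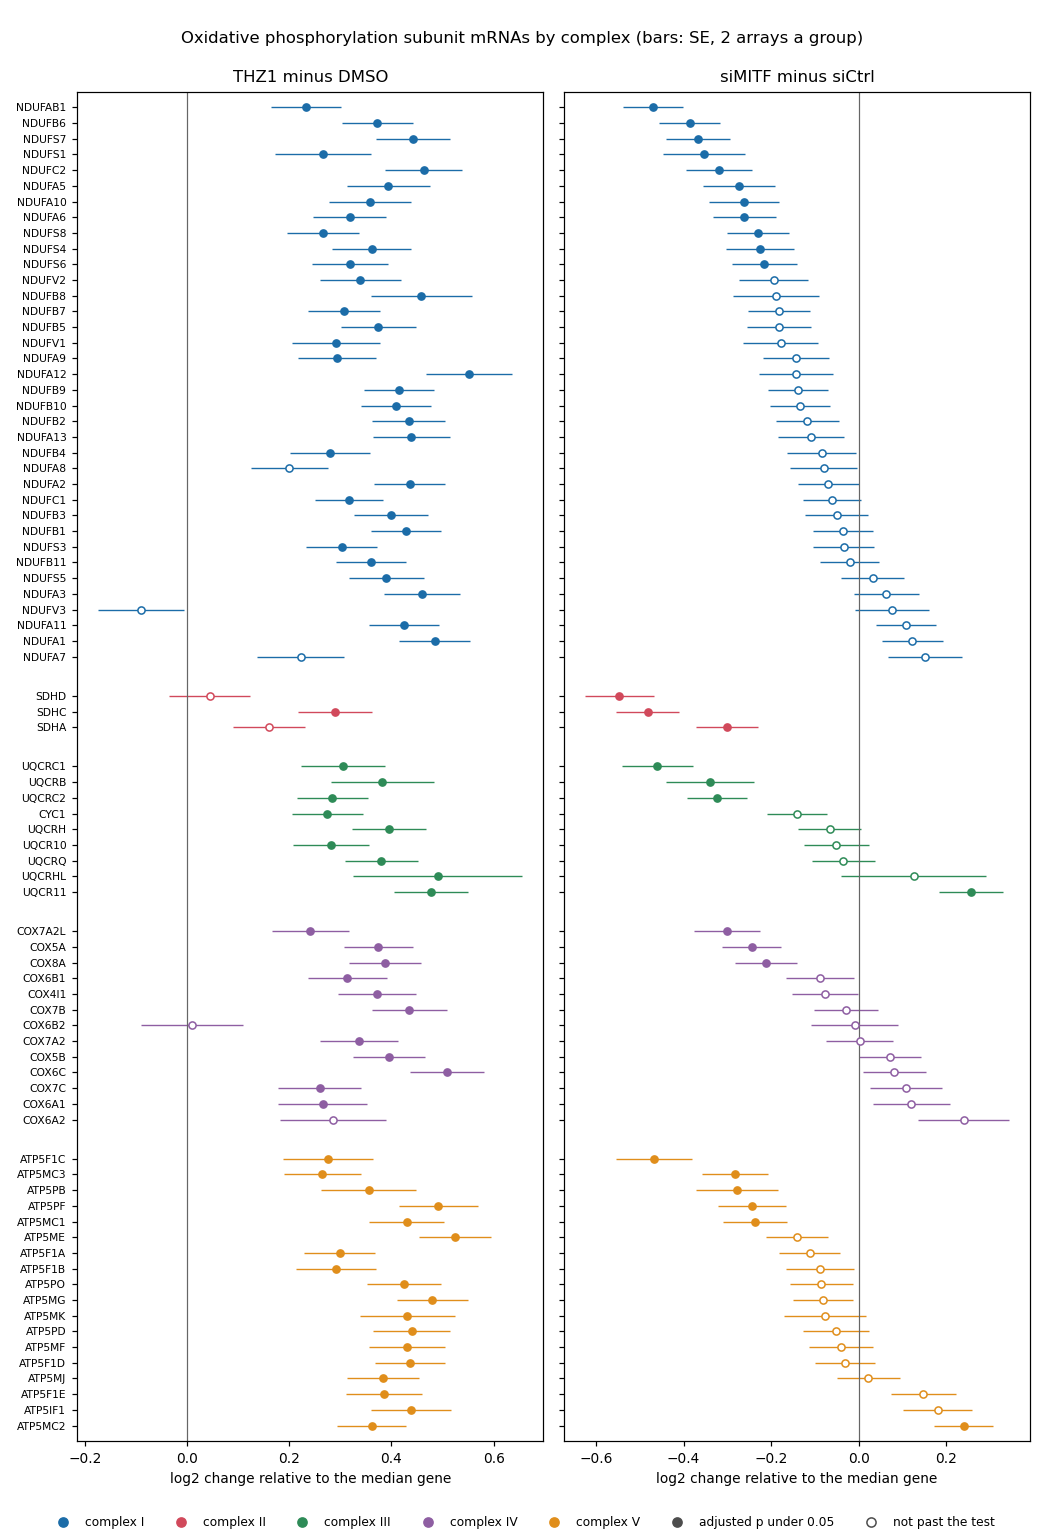
Each point is the log2 change of 1 tested gene relative to the median gene, THZ1 minus DMSO on the left and siMITF minus siCtrl on the right, with bars of 1 standard error and genes grouped by complex (COX7A2L and ATP5IF1 are not subunits). Filled points passed the limma test. With THZ1, 72 of 79 points are filled and to the right of 0. With siMITF, 25 are filled to the left and 2 to the right, a leaning that does not hold after quantile normalization, with 9 lower and 10 higher, or cyclic loess, with 7 lower and 11 higher.

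In complex I, 33 of 36 genes rose with THZ1, with a median of 0.37, including all 6 measured subunits of the catalytic core (median 0.30) and 27 of 30 accessory subunits (median 0.38). NDUFA12, an accessory subunit, had signals of 1896 and 2591 with THZ1, against 1670 and 1800 with DMSO. It was thus one of the genes whose THZ1 arrays lay above the DMSO arrays as deposited, and its relative change was 0.55 (SE 0.08, limma adjusted p = 0.000763). NDUFA1, the brightest of complex I and a small membrane subunit, had 4740 and 6111 with THZ1, against 4081 and 4776 with DMSO. Those ranges overlapped, and its relative change was 0.48 (SE 0.07, limma adjusted p = 0.000526). NDUFV3, an accessory subunit beside the NADH-oxidizing site, had 519 and 759 with THZ1, against 671 and 885 with DMSO, with a relative change of -0.09 (SE 0.08, limma adjusted p = 0.426). It was the 1 tested gene of the 79 with a value below 0. NDUFA7 and NDUFA8, also accessory, did not pass, at 0.22 and 0.20.

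In complex II, 1 of 3 genes rose with THZ1, with a median of 0.16. SDHC, a membrane anchor at the ubiquinone site, had 1690 and 2252 with THZ1, against 1641 and 2048 with DMSO. Its arrays overlapped as deposited but not after centring, and its relative change was 0.29 (SE 0.07, limma adjusted p = 0.0112). SDHA, the flavoprotein that oxidizes succinate, had 1077 and 1521 with THZ1, against 1180 and 1466 with DMSO, a relative change of 0.16 (limma adjusted p = 0.0948). SDHD, the other anchor, had 1115 and 1347 with THZ1, against 1219 and 1533 with DMSO, a relative change of 0.04 (limma adjusted p = 0.686). The other SDHD probe sets, 4 in number with 1 pair of identical values, gave 0.30 to 0.33 for the same contrast, so the value for SDHD depends on the probe set. Whether complex II differed from the other complexes was not tested.

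All 9 genes of complex III rose with THZ1, with a median of 0.38. Among the proteins of its core, cytochrome c1 (CYC1) changed by 0.27, UQCRC1 by 0.31 and UQCRC2 by 0.28 relative to the median gene. The small subunits had a median of 0.39. UQCRQ, the brightest and a subunit that binds next to cytochrome b, had 5991 and 7357 with THZ1, against 5333 and 6433 with DMSO, and changed by 0.38 (limma adjusted p = 0.00266). UQCR11, the smallest subunit, had 2132 and 2705 with THZ1, against 1768 and 2212 with DMSO, overlapping as deposited and separate after centring. Its relative change was 0.48 (SE 0.07, limma adjusted p = 0.000786), but a dimmer second UQCR11 probe set gave -0.59, and the mean of both gave -0.08.

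In complex IV, 11 of 13 tested genes rose with THZ1, with a median of 0.34. COX6C, a common subunit, had the largest change of the complex. Its signals were 5041 and 6974 with THZ1, against 4186 and 5459 with DMSO, and it changed by 0.51 (SE 0.07, limma adjusted p = 0.000502). COX6A1, the brightest gene of all 79, had 10272 and 11768 with THZ1, against 9785 and 11273 with DMSO. Its ranges overlapped, and its relative change of 0.27 (SE 0.09, limma adjusted p = 0.0363) became -0.07 after cyclic loess. COX7A2L rose by 0.24 (limma adjusted p = 0.029).

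All 18 tested genes of complex V rose with THZ1, with the highest median of the complexes, 0.43. That rank did not hold against tested genes of like signal, where the median was 0.16 in complex V and 0.18 in complex I. ATP5ME, a small membrane subunit, had 1931 and 2554 with THZ1, against 1619 and 1933 with DMSO, and changed by 0.52 (SE 0.07, limma adjusted p = 0.000368). Its deposited ranges just overlapped, with 1931 on the lower THZ1 array and 1933 on the higher DMSO array. The 5 genes of the F1 head and central stalk, where ATP is made, had a median of 0.30, the 4 of the peripheral stalk 0.43 and the 5 small membrane subunits 0.43. ATP5F1B, the catalytic beta subunit and brightest of the complex, had 7636 and 9673 with THZ1, against 7511 and 8662 with DMSO. It changed by 0.29 (limma adjusted p = 0.0151) relative to the median gene, and by -0.01 after cyclic loess. ATP5IF1 rose by 0.44.

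**Figure D2:**
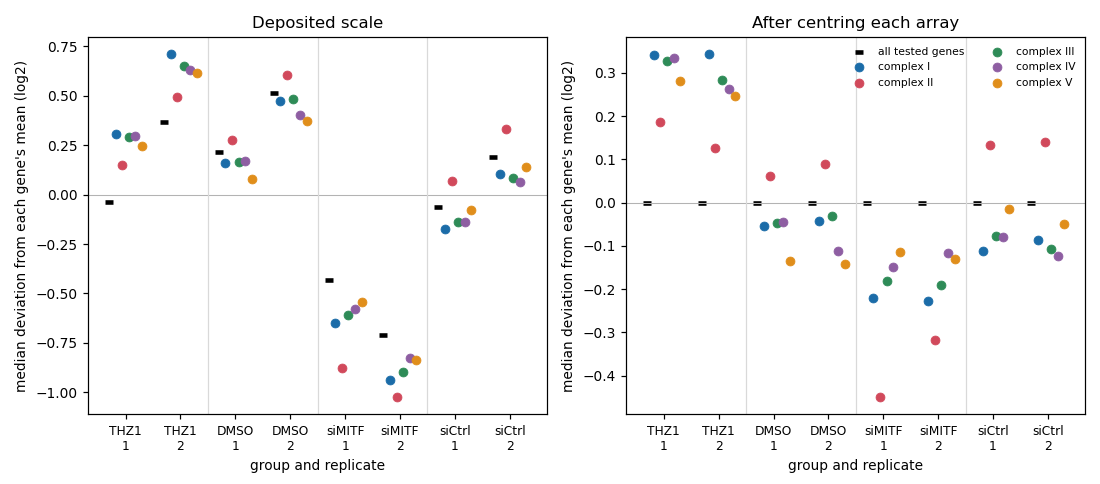
Median deviation of the tested genes of each complex from each gene's own mean over the 8 arrays (log2), by group and replicate, as deposited on the left and after centring each array on the right; black bars are all tested genes. After centring, complexes I, III, IV and V lie between 0.25 and 0.34 on both THZ1 arrays and below 0 on both DMSO arrays, and complex II is the lowest point on both siMITF arrays.

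After MITF knockdown the subunit mRNAs fell on the deposited scale, as most mRNAs did, and differed from each other once that general fall was set aside. As deposited, 68 of 79 fell and 0 rose by the limma test, against 63.4% of all tested genes that fell and 0.326% that rose. The median was -0.72, against -0.63 for the median gene. Both siMITF signals lay below both siCtrl signals for 79 of 79, which held for 89.0% of all tested genes, and above them for 0, against 0.929%. The standard error there is 0.25 for each gene and includes an offset shared by the whole array. With each gene's own variance 0 of 79 passed, and without siCtrl replicate 2 or siMITF replicate 2 the count was 8.

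On the relative scale 25 of 79 fell and 2 rose with siMITF, against 24.7% of all tested genes that fell and 19.5% that rose. The median was -0.09 and the range -0.55 to 0.26. This leaning changed with the scaling, since after quantile normalization 9 fell and 10 rose with a median of 0.01, and after cyclic loess 7 fell and 11 rose with a median of 0.04. It moved with the pseudocount too, with 11 lower and 5 higher at 1, and 57 lower and 1 higher at 64. Without siMITF replicate 2, 10 passed, all lower; without siMITF replicate 1, 16 passed; and without siCtrl replicate 2, 13 passed. Against tested genes of like signal, 43 of 79 were above the median of their bin and 36 below. At a mean signal of at least 1000, 28.8% of the 59 subunit genes fell, against 40.1% of all tested genes in that range. Below it, 40% of the 20 subunit genes fell, against 23% of the 10798 tested genes. Those shares are not of like signal, since most of the 10798 were dimmer than most of the 20. The bins from 515.7 to 674.8 and from 674.9 to 971.4 held 7 and 10 of the subunit genes. The median siMITF change of all tested genes there was -0.30 and -0.26.

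**Figure D3:**
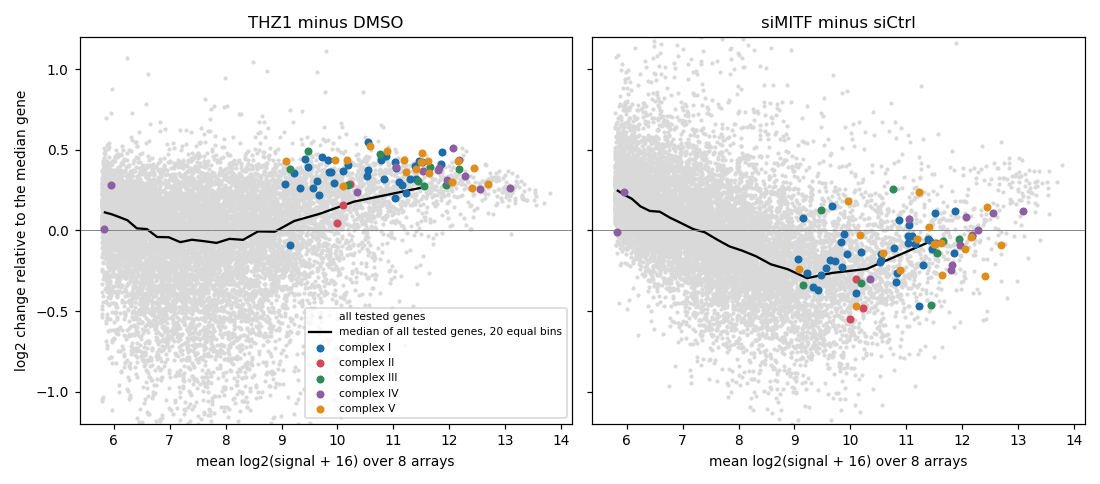
Log2 change relative to the median gene against mean log2(signal + 16) over 8 arrays, for all tested genes (grey) and the subunit genes (coloured by complex); the black line joins the medians of 20 bins of equal size. With THZ1 the coloured points lie above the line for 72 of 79 genes. With siMITF the line dips to -0.30 and the points lie on both sides of it, 43 above and 36 below.

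Complex II was the one complex in which every measured gene fell with siMITF on both scales, with a relative median of -0.48 and a deposited median of -1.11. SDHD had signals of 538 and 485 with siMITF, against 1069 and 1298 with siCtrl. The groups were far apart, and its relative change of -0.55 (SE 0.08, limma adjusted p = 0.00051) was the lowest of the 79. SDHC had 572 and 436 with siMITF, against 978 and 1237 with siCtrl, for a relative change of -0.48 (SE 0.07, limma adjusted p = 0.000643). SDHA had 695 and 592 with siMITF, against 1132 and 1357 with siCtrl, for a relative change of -0.30 (SE 0.07, limma adjusted p = 0.00674). No siMITF array of the 3 genes reached the lower siCtrl array as deposited, which also held for all 79 genes and for 89.0% of all tested genes.

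Tested genes of like signal, between 972 and 1697, had a median siMITF change of -0.24, and the 3 genes of complex II lay below it by 0.06 to 0.31. Their median stayed below 0 after quantile normalization, at -0.23, and after cyclic loess, at -0.29. The 4 other SDHD probe sets gave -0.36 to -0.65. Of the 4 other SDHC probe sets, 3 gave -0.35 to -0.50, and a dimmer set, the one left when probe sets that may detect related sequences are dropped, gave 0.07. SDHB, the remaining subunit, was not analysed here, and no test compared the complexes.

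**Figure D4:**
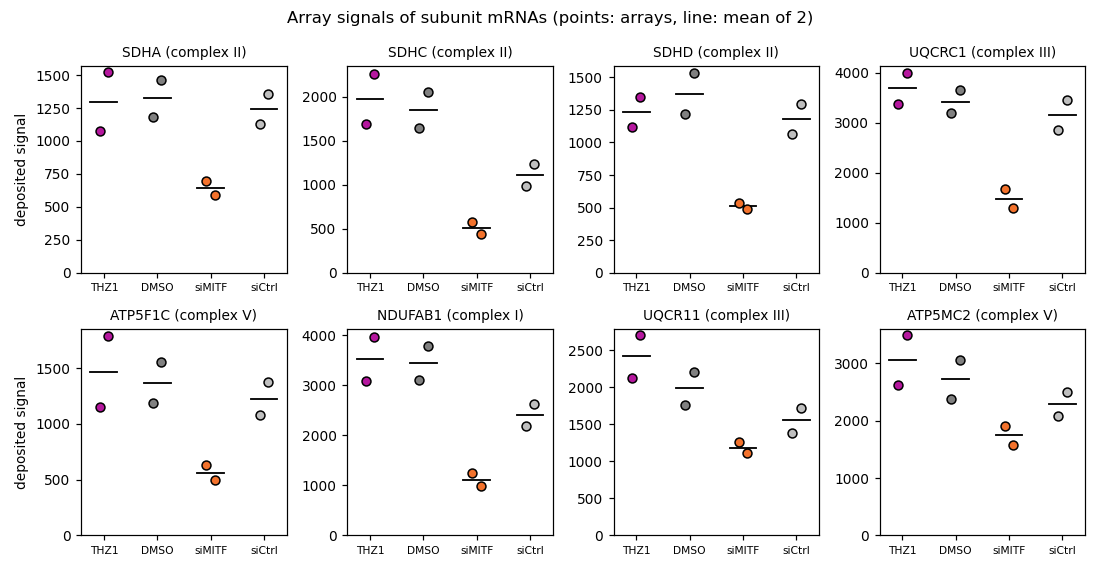
Deposited signal on each array (points) and the mean of 2 (line) for 8 subunit genes in the THZ1, DMSO, siMITF and siCtrl groups, on linear axes from 0. For each gene both siMITF points lie below both siCtrl points, as for 89.0% of all tested genes, while the THZ1 and DMSO points overlap.

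By complex, 30.6% of the genes of complex I, 33.3% of complex III, 23.1% of complex IV and 27.8% of complex V fell with siMITF on the relative scale, shares near the 24.7% of all tested genes. In complex I, 11 of 36 genes fell and 0 rose relative to the median gene, with a median of -0.14, which was 0.05 after both quantile normalization and cyclic loess. Of the catalytic core 3 of 6 fell, namely NDUFS1, NDUFS7 and NDUFS8, which carry iron-sulfur clusters, and of the accessory subunits 8 of 30. NDUFAB1, the acyl carrier protein, which also serves mitochondrial fatty acid synthesis, had 1246 and 981 with siMITF, against 2185 and 2618 with siCtrl. The groups did not overlap, and its relative change was -0.47 (SE 0.07, limma adjusted p = 0.000535). NDUFA7, at the other end, had 569 and 512 with siMITF, against 688 and 837 with siCtrl, for a relative change of 0.15 (limma adjusted p = 0.173).

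In complex III, 3 of 9 genes fell and 1 rose. UQCRC1, a core protein, had 1667 and 1293 with siMITF, against 2866 and 3461 with siCtrl, for a relative change of -0.46 (SE 0.08, limma adjusted p = 0.00164). UQCRC2 fell by 0.32 and UQCRB, a ubiquinone-binding subunit, fell by 0.34. UQCR11 had 1258 and 1116 with siMITF, against 1386 and 1719 with siCtrl, so its arrays did not overlap either, but it was lower by less than the median gene. Its relative change was 0.26 (SE 0.07, limma adjusted p = 0.0176), against -0.43 from its second probe set and -0.13 from the mean of both.

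In complex IV, 3 of 13 genes fell with siMITF and 0 rose, with a median of -0.01. They were COX5A and COX8A, common subunits, at -0.24 and -0.21, and the supercomplex factor COX7A2L, at -0.30. COX7A2L had 711 and 601 with siMITF, against 1100 and 1450 with siCtrl. In complex V, 5 of 18 fell and 1 rose. ATP5F1C, the gamma subunit that forms the rotating stalk, had 628 and 498 with siMITF, against 1078 and 1375 with siCtrl, for a relative change of -0.47 (SE 0.09, limma adjusted p = 0.00218). The others that fell were ATP5PB and ATP5PF of the peripheral stalk, at -0.28 and -0.24, and the c-ring genes ATP5MC1 and ATP5MC3.

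The c ring turns as protons pass, and its 3 genes encode the same mature protein. ATP5MC1 had 328 and 258 with siMITF, against 482 and 617 with siCtrl, for a relative change of -0.24 (limma adjusted p = 0.0256). ATP5MC3 had 3234 and 2665 with siMITF, against 5207 and 5914 with siCtrl, for a relative change of -0.28 (limma adjusted p = 0.0125). ATP5MC2 had 1913 and 1568 with siMITF, against 2073 and 2504 with siCtrl, and rose relative to the median gene by 0.24 (limma adjusted p = 0.0165). ATP5MC1 and ATP5MC3 thus lost more signal than ATP5MC2, as the deposited changes of -0.87, -0.91 and -0.39 show, though ATP5MC1 was at 0.02 after quantile normalization. With THZ1 all 3 rose on the relative scale, by 0.43 for ATP5MC1, 0.26 for ATP5MC3 and 0.36 for ATP5MC2, with ATP5MC3 at -0.01 after quantile normalization and -0.02 after cyclic loess.

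Complex IV has pairs of common and tissue-restricted isoforms, whose probe sets cannot be compared in level. COX4I1 had 3573 and 4568 with THZ1 and 3304 and 3886 with DMSO, and the hypoxia-linked COX4I2 had 32.8 and 49.5 with THZ1 and 49.9 and 40.4 with DMSO. COX6A2, the isoform of heart and skeletal muscle, and COX6B2, the isoform of testis, passed the filter at mean signals of 46.1 and 40.9 and did not pass the test on the relative scale in either comparison. On the deposited scale COX6B2 fell with siMITF, by 0.64 (limma adjusted p = 0.0182). COX7B2 and COX8C stayed at or under 15.1 and 30.5 on each array. The common COX6B1, COX7A2, COX7B and COX8A rose with THZ1 by 0.31, 0.34, 0.43 and 0.39 relative to the median gene. Of these only COX8A passed with siMITF, at -0.21 (limma adjusted p = 0.0347). COX4I1 changed by 0.37 with THZ1 (limma adjusted p = 0.00395), and a dim further COX4I1 probe set gave -0.21.

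The drug and knockdown changes were compared directly, with no array shared between them. On the relative scale the THZ1 change exceeded the siMITF change for 67 of 79 genes and fell short for 0, against 21.4% and 20.2% of all tested genes, with a median difference of 0.47. Those past this test were 33 of 36 in complex I, 3 of 3 in complex II, 7 of 9 in complex III, 9 of 13 in complex IV and 15 of 18 in complex V. Bright genes as a whole also differed. At a mean signal of at least 1000, the THZ1 change exceeded for 89.8% of the 59 subunit genes, against 57.5% of all 1148 tested genes in that range. Below it, the shares were 70% of 20 and 17.6% of 10798, where most of the 10798 were dimmer than most of the 20. Set against tested genes of like signal, 69 of 79 differences were above the median of their bin, by a median of 0.14. After quantile normalization 18 exceeded and 1 fell short, and after cyclic loess 19 and 1. On the deposited scale the count was 33 higher, against 9.84% of all tested genes, and 0 lower, against 0.946%. The count was 0 without DMSO replicate 1, siCtrl replicate 2, siMITF replicate 2 or THZ1 replicate 2 and 69 without THZ1 replicate 1.

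The largest differences were 0.81 for NDUFS7, an iron-sulfur subunit of complex I, 0.78 for NDUFC2, an accessory subunit, and 0.77 for SDHC. NDUFS7 had 767 and 1105 with THZ1, against 693 and 868 with DMSO, and 416 and 329 with siMITF, against 698 and 819 with siCtrl. It rose by 0.44 in one comparison and fell by 0.37 in the other, relative to the median gene (limma adjusted p of the difference = 0.000284). The smallest were -0.16 for NDUFV3, 0.02 for COX6B2 and 0.05 for COX6A2. Across the 79 genes the THZ1 and siMITF changes had Pearson's r = 0.19 and Spearman's rho = 0.23, over genes that share their arrays.

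**Figure D5:**
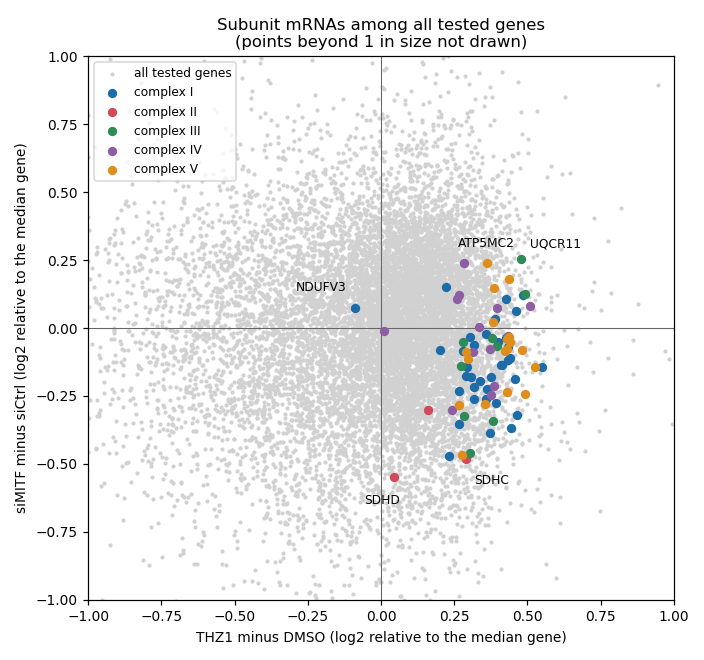
THZ1 change (x) against siMITF change (y), both log2 relative to the median gene, for all tested genes (grey) and the subunit genes (coloured by complex). The coloured points form a narrow band at THZ1 changes of 0.20 to 0.55, with NDUFV3, SDHD, SDHA and COX6B2 to its left, and spread from -0.55 to 0.26 in the siMITF change, whose centre is near 0 and moves across it with the scaling.

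Other probe sets gave a check on the single probe set used per gene. Of the genes that passed with THZ1, 43 had further probe sets above the filter, and 74 of those 80 probe sets had the same sign. With siMITF it was 30 of 35, over 18 genes. Not all of these probe sets are separate measurements. In the THZ1 count a further NDUFB4 probe set has the same values as the set used. In the siMITF count a pair of SDHD probe sets have identical values. Genes that did not pass were outside this check, and their siMITF values could differ between probe sets in either direction. NDUFB3 was at -0.05 with the set used and at -0.68 to -0.40 with others. NDUFV3 was at 0.08 with the set used and at -0.09 to 0.36 with others. Without COX7A2L, ATP5IF1 and UQCRHL, the counts were 69 of 76 higher with THZ1, and 24 lower and 2 higher with siMITF.

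Genes that build and serve the complexes were examined in the same way. Of 50 tested assembly factors, 30% rose and 14% fell with THZ1 relative to the median gene, against 17.7% and 21.1% of all tested genes, with a median of 0.11. The largest falls among those named by lowest p were SDHAF1, which helps load iron-sulfur clusters into complex II, at -0.96, COX19, a copper-related factor of complex IV, at -0.86, and TMEM186, a factor of complex I, at -0.81. SDHAF1 had 94.3 and 112 with THZ1, against 225 and 278 with DMSO (limma adjusted p = 2.03e-05). Of the 12 genes of mitochondrial DNA expression, 4 rose and 4 fell. TEFM, the mitochondrial transcription elongation factor, had 277 and 371 with THZ1, against 614 and 740 with DMSO (-0.84, limma adjusted p = 1.6e-05). TWNK, the replicative helicase, fell by 0.75 and POLG2, the polymerase's accessory subunit, fell by 0.67. TFAM, which packages mitochondrial DNA, rose by 0.33. With siMITF, TFAM, TFB2M and TEFM passed the limma test downward, at -0.46, -0.39 and -0.31, and POLRMT and POLG2 passed upward, at 0.35 and 0.27.

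Changes of genes for carbon supply to the chain were counted relative to the median gene. With THZ1, 6 of 11 TCA cycle genes and 4 of 6 genes of pyruvate entry rose and 0 fell. Of all tested genes 17.7% rose and 21.1% fell, and 53.9% of those with a mean signal of at least 1000 rose. On the deposited scale 0 of the 11 and 0 of the 6 passed with THZ1, with medians of 0.02 and 0.09. There 10 of 11 and 6 of 6 fell with siMITF, against 63.4% of all tested genes. Relative to the median gene, 8 of 11 TCA cycle genes fell with siMITF, with a median of -0.43. So did 5 of 6 pyruvate entry genes, with a median of -0.36. On that scale 24.7% of all tested genes fell, and 40.1% of the bright ones. IDH3A, a subunit of isocitrate dehydrogenase, had 502 and 366 with siMITF, against 1120 and 1311 with siCtrl (-0.83, limma adjusted p = 6.26e-05). SUCLA2, of succinyl-CoA synthetase, fell by 0.60, DLAT and PDHA1, of pyruvate dehydrogenase, fell by 0.61 and 0.54, and MPC2, of the pyruvate carrier, fell by 0.42. Assembly factors fell for 25 of 50 and rose for 1, with CMC2, NDUFAF4 and TMEM70 at -0.78, -0.71 and -0.70. Of the 12 genes for cytochrome c and ubiquinone synthesis, 3 rose and 1 fell with THZ1, and 1 rose and 6 fell with siMITF. These counts too are relative to the median gene. Of all tested genes, 17.7% rose and 21.1% fell with THZ1, and 19.5% rose and 24.7% fell with siMITF.

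PPARGC1A, the coactivator of this gene class, fell in both experiments. It had 336 and 439 with THZ1, against 770 and 992 with DMSO, and 282 and 211 with siMITF, against 712 and 877 with siCtrl. In neither experiment did the groups overlap. The relative changes were -0.95 (SE 0.07, limma adjusted p = 1.28e-05) with THZ1 and -1.0 (SE 0.07, limma adjusted p = 1.91e-05) with siMITF, and the deposited changes were -1.15 and -1.63. Among 9 tested regulators, 5 fell and 0 rose with THZ1 on the relative scale, against 21.1% and 17.7% of all tested genes. Those that fell included GABPB1, the beta subunit of GABP, at -0.77, and PPRC1, a PPARGC1A relative, at -0.65. With siMITF 2 fell and 2 rose on that scale, shares near the 24.7% and 19.5% of all tested genes. Those that rose relative to the median gene were GABPA at 0.39 and TFEB, a factor of the MITF family, at 0.31. As deposited both changes were below 0, at -0.25 and -0.32. On that scale 6 of the 9 regulators fell and 0 rose with siMITF, against 63.4% and 0.326% of all tested genes.

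Other large protein machines gave a setting for the subunit genes. On the relative scale 17.7% of all tested genes rose and 21.1% fell with THZ1, and 19.5% rose and 24.7% fell with siMITF. At a mean signal of at least 1000 the shares were 53.9% and 6.62% with THZ1, and 12.2% and 40.1% with siMITF. Of 59 cytosolic ribosomal protein genes, 41 rose and 1 fell with THZ1 (median 0.28) and 43 rose and 3 fell with siMITF (median 0.29). Of 76 mitochondrial ribosomal protein genes, 9 rose and 9 fell with THZ1 (median 0.04) and 0 rose and 44 fell with siMITF (median -0.25). Of 35 proteasome genes, 16 rose and 2 fell with THZ1 (median 0.20) and 0 rose and 23 fell with siMITF (median -0.28). The subunit genes thus had the highest median of the 4 classes with THZ1, and a median between those of the ribosomal classes with siMITF, and the classes were not tested against each other.

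In the promoters shown above and in those of the other members, the motif content can be set beside the responses. Windows of 250 bases before to 50 after the start were on record for 66 of the 79 tested genes. An ERR match was in 12.1% of these 66, against 2.54% of 9809 promoters of tested genes and 3.97% of all 27305 windows. NRF1 matches were in 22.7%, against 11.7% and 6.28%, ETS/GABP matches in 28.8%, against 18.6% and 10.7%, and YY1 matches in 10.6%, against 3.97% and 1.85%. E-boxes were in 10.6%, against 10.2% and 7.43%.

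Of the 21 genes with a window that fell with siMITF on the relative scale, 5 held an ERR match, against 3 of the 43 that did not pass. The same counts were 5 of 21 and 2 of 43 for YY1, 4 of 21 and 10 of 43 for NRF1, 4 of 21 and 14 of 43 for ETS/GABP, and 3 of 21 and 3 of 43 for the E-box. Of the 8 tested genes with an ERR match, NDUFA5, NDUFS6, NDUFS7, SDHD and COX8A were lower with siMITF relative to the median gene. The others, NDUFB4, ATP5MG and ATP5MJ, did not pass, at -0.08, -0.08 and 0.02. The SDHD match does not lie within the bases shown. A match is a string of letters and not a shown binding site, and these counts are small and untested.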

How the data were processed

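RNA from 8 arrays in 4 groups of 2 was analysed, grouped by their titles. Signals are MAS5 summaries, per the submitters' processing notes. The deposited values are linear array intensities (signals) that the authors normalized for cell number, per the design text of the series; the calculation was not given in the sources used here. Members and gene lists were chosen with earlier results of these data known.

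From these intensities, log2(signal + 16) was computed for 49495 probe sets, of which 45284 carried 1 gene symbol in the platform annotation, 1333 several, and 45214 matched a RefSeq gene table (GRCh38.p14) by gene ID. Each gene took the values of its brightest probe set with 1 symbol, and was tested if its mean log2 signal reached the 40th percentile of such probe sets, a signal of 39.2. A limma 3.58.1 model (R 4.3.3) held a mean for each of the 4 groups, fitted to the 8 arrays together, with moderated variances and Benjamini-Hochberg adjustment across all 11946 tested genes. For the relative scale, the deviation of each tested gene from its own mean was taken, and the median of these was subtracted from each array. The prior degrees of freedom were infinite on the deposited scale, so p-values there overstate the evidence, and 5.97 beside 4 residual ones on the relative scale. On simulated arrays for THZ1 against DMSO on the relative scale over 11946 genes, 71% of 100 changes of 0.5 and 97% of 100 changes of 1 were recovered, with 7 false calls.

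Named genes were, per complex, the brightest and those with the highest and lowest relative change in each comparison, members that passed against the median direction, the 3 largest and smallest differences, isoform pairs, complex II, PPARGC1A, MITF, CDK7 and up to 3 genes per list with the lowest adjusted p; other names were chosen after their values were seen, as were the bins of like signal and the limit of 1000. Promoter windows and sequences were from RefSeq (GRCh38.p14) and matched 68 of 84 members by symbol. The number of arrays limits the precision. Alternatives were the pseudocount, the filter, the choice of probe set, the normalization, the variance model, the arrays in the fit, a replicate block and leaving out each array.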

Additional observations from a re-analysis of the deposited data

How the results depend on the processing

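The count of 0 subunit genes with THZ1 on the deposited scale held in all 20 alternatives run. For the fall with siMITF on that scale (68), the count was 0 with each gene's own variance and 8 to 75 with 1 array left out. The difference of the changes there (33 higher) was 12 with a pseudocount of 1, 65 with 64, 0 with own variances, 2 with a variance trend, 56 with the replicate block and 0 to 69 with 1 array left out. On the relative scale, THZ1 (72) gave 29 with no filter, 32 after quantile normalization, 39 after cyclic loess and 57 to 72 with 1 array left out. The siMITF comparison (27) gave 16 with a pseudocount of 1, 58 with 64, 41 with no filter and 10 to 27 with 1 array left out. The difference (67) gave 19 after quantile normalization, 20 after cyclic loess and 59 to 65 with 1 array left out. The causes were not tested. The arrays left alone in a group were assumed to vary like the others.

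Replicate numbers were not treated as pairs, since same-numbered arrays deviated together at r = 0.11 for THZ1 and DMSO and r = -0.18 for siMITF and siCtrl; with the replicate block the relative counts were 72, 24 and 66. Of the values for single genes, 14 changed sign. With the mean of probe sets these were UQCR11, at -0.0793 with THZ1 and -0.127 with siMITF, and UQCRQ, at -0.0612 for the difference. Without probe sets that may detect related sequences they were COX4I1, at -0.21 with THZ1 and -0.12 for the difference, SDHC with siMITF at 0.0659 and ATP5MJ with siMITF at -0.32. After quantile normalization they were NDUFAB1 (-0.000706) and ATP5MC3 (-0.00540) with THZ1 and ATP5MC1 with siMITF (0.0179). After cyclic loess they were COX6A1 (-0.067), ATP5F1B (-0.012) and ATP5MC3 (-0.0175) with THZ1 and COX7A2 for the difference (-0.016). Quantile normalization and cyclic loess give no deposited-scale value by construction, centring on ERCC leaves relative values as they are, and counting further symbols that match the rule added no gene. Leaving out COX7A2L, ATP5IF1 and UQCRHL was chosen after seeing the data. Outliers cannot be assessed with 2 arrays a group.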
